A study of Homo sapiens with 3 samples.

Results

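ATP-binding cassette (ABC) transporters were followed in FaDu, an established line of hypopharyngeal squamous carcinoma, with and without NSC-631570, an extract of greater celandine (Chelidonium majus). Members were the probe sets that name exactly 1 gene in the platform annotation, with a symbol made of ABC, a subfamily letter from A to G and a number. They came to 125 of 44994 such probe sets and 42 of 18132 genes. ABCB6 was reached only by probe sets that also name ATG9A. The series holds 3 PrimeView arrays. FaDu cells kept for 48 h with distilled water gave untreated arrays 1 and 2. Cells kept for 48 h in medium with 10 µg/ml of NSC-631570, which the submitters call the half-maximal effective dose, gave the only treated array. All cells grew in a medium with fetal calf serum and antibiotics. FaDu comes from 1 tumour, and whether each untreated array had a culture of its own is not in the labels, so p-values measure only the spread between that pair, which may be technical. The treated condition has no replicate, and with 3 arrays an exact permutation test of a single probe set could not go below p = 0.333.

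ABC proteins bind ATP at a conserved pair of cassettes and, in most of the family, use its hydrolysis to move a substrate across a membrane. Subfamily A moves lipids, B holds the multidrug pump P-glycoprotein and several mitochondrial and lysosomal transporters, C holds the multidrug resistance proteins that export glutathione and glucuronide conjugates, D imports fatty acids into peroxisomes, and G exports sterols and drugs. Subfamilies E and F have no membrane-spanning part and work on the ribosome instead. In carcinoma cells the family is known above all for drug efflux. Some of its genes are also targets of receptors for oxysterols and foreign compounds.

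The promoters of 4 members are shown: ABCA1, the textbook target of the oxysterol (liver X) receptors, and the whole of subfamily F. Of these genes, only ABCF2 and ABCF3 had a probe set called below. The part of the promoters in any difference was not tested. Each line gives the 250 bases before the RefSeq start (GRCh38.p14), read 5′ to 3′ on the strand of the gene. ABCA1 lies at chr9:104928156-104928405 on the minus strand, ABCF1 at chr6:30571192-30571441 on the plus strand, ABCF2 at chr7:151227206-151227455 on the minus strand and ABCF3 at chr3:184185949-184186198 on the plus strand. Capitals in ABCA1 mark a direct repeat, NGGTNA and a second NGGTNA with 4 bases between the copies, here on the other strand. Capitals in ABCF1, ABCF2 and ABCF3 mark CACGC, the other strand of GCGTG, the core of the xenobiotic response element.
ABCA1: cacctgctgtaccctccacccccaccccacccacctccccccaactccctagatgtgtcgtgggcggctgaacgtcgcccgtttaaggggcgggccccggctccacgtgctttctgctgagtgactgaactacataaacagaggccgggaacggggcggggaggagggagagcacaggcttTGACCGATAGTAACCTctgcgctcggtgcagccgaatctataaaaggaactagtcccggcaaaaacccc
ABCF1: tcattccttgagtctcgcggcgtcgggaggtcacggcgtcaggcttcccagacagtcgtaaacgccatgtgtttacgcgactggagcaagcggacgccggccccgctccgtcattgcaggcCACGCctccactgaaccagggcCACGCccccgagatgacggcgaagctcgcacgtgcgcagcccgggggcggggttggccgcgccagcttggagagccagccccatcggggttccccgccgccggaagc
ABCF2: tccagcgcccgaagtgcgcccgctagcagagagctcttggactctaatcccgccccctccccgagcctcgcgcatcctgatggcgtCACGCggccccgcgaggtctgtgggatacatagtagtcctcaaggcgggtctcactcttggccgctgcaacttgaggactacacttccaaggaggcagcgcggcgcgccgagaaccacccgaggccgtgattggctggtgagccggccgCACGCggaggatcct
ABCF3: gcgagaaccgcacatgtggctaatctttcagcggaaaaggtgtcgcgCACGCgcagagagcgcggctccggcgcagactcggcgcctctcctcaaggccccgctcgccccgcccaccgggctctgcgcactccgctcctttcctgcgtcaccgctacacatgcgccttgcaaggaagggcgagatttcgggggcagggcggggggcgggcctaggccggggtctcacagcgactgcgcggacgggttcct
The repeat in ABCA1 lies 69 to 54 bases before the start. The CACGC words lie 129 to 125 and 107 to 103 bases before the start in ABCF1, 164 to 160 and 15 to 11 in ABCF2, and 203 to 199 in ABCF3.

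Windows of 300 bases (250 before and 50 after a start) were held for 33 of the 42 genes, 50 windows in all, among 35116 windows of the table. ABCA4, ABCA8, ABCB4, ABCB5, ABCC1, ABCC3, ABCC8, ABCC13 and ABCG1 had no entry. Motifs were searched on both strands. The direct repeat occurred in 0.624% of all windows and, within the family, only in that of ABCA1. GCGTG occurred in 36.5% of all windows and in 46.0% of ABC windows, from 18 genes. The core of the antioxidant response element (TGACNNNGC) occurred in 13.3% of all windows and in 22.0% of ABC windows, from 11 genes including ABCC4 and ABCG2. A word in a window is a description of its letters and not a binding site.

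The deposited signals are on a log2 scale, with array medians of 6.62, 6.57 and 6.55. Most genes have several probe sets, each matching a stretch of a transcript or of some of its variants, and levels were compared only within a probe set. Probe sets with a mean below 5.85, the 40th percentile, were not tested, which left 27255, of which 57 were ABC probe sets of 25 genes. PrimeView carries control probe sets at the 3′, middle and 5′ parts of a few transcripts, and these differed along the transcript in the treated array. The 3′ probe set of ACTB (beta-actin) differed from the untreated mean by 0.20 and its 5′ probe set by −1.37, which is 2.59-fold lower. The 3′ and 5′ differences were −0.01 and −0.48 for GAPDH. The design sequence of a probe set went with its direction as well. Tested probe sets designed on a RefSeq transcript were above both untreated arrays in 54.0% and below both in 20.1% of cases, the others in 34.7% and 41.0%. How far this goes into the results on ABC genes was not tested, and the design sequence is given for the probe sets called.

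Markers of squamous epithelium fitted the label, with all 14 probe sets of 7 genes past the filter and untreated signals up to 13.48. No marker was called higher and 2 probe sets were called lower: KRT5 11751723_a_at (−2.30, adjusted p = 0.0069) and CDH1 11716905_a_at (−1.33, adjusted p = 0.0339). The other probe set of each differed by −0.39 in KRT5 and 0.21 in CDH1. Over all probe sets tested, 2.37% were called lower. KRT14 differed by 0.95 (limma adjusted p = 0.0956), above both untreated arrays. PKP1 (0.47 to 0.94) and SFN (0.51) also lay above both. EPCAM lay below both on its 3 probe sets (−0.42 to −0.41). DSG3 lay below both on 11728832_at (−0.72) and between them on its other probe set (−0.09). Of the 14 probe sets, 6 lay above both and 7 below, beside 40.7% and 34.5% of all tested. KRT6A, KRT17 and TP63, also on the list, had no probe set that names 1 gene. The summed linear signal of the list was 50514, 54204 and 47217 in untreated 1, untreated 2 and treated. Of the leukocyte markers, 5 of 12 probe sets passed the filter, from CD68 (differences of 1.46 and 0.57), CD14 (0.82 and 0.57) and CD3E (0.20). All 5 lay above both untreated arrays, CD3E by only 0.005, beside 40.7% of all tested. None passed the threshold, with a list sum of 773, 899 and 1507. The defining leukocyte gene PTPRC stayed between 3.20 and 3.78 on its 6 probe sets. Sums were 569, 510 and 553 for fibroblast markers, 566, 566 and 539 for endothelial markers, and 606, 1070 and 1049 for hepatocyte markers.

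ABC probe sets lay on both sides of the untreated arrays. Of all 125 probe sets, 49 lay above both untreated arrays in the treated one, 34 lay below both and 42 lay between them. These are 39.2% and 27.2%, beside 38.7% and 33.3% of all 44994 probe sets. At least 1.5-fold beyond both untreated arrays were 8 above (6.4%) and 5 below (4.0%), beside 2.93% and 4.54%. By limma with Benjamini-Hochberg adjustment over 27255 probe sets, 1 ABC probe set was higher, in ABCC3, and 2 were lower, in ABCF2 and ABCF3. Over all probe sets tested, 0.55% were called higher and 2.37% lower, 2.92% in either direction. At an unadjusted p under 0.05, limma counted 7 of the 57 ABC probe sets higher and 7 lower, beside 8.3% and 9.56% of all tested. Of the 57 tested, 6 lay at least 1.5-fold above both untreated arrays and 5 at least 1.5-fold below, beside 4.15% and 6.77% of all tested. At least 2-fold beyond both were 1 above and 2 below, beside 0.646% and 2.57%. Of the 6, 3 had passed the filter only through the treated value. The median difference was 0.05 over the 57 tested ABC probe sets and 0.03 over all tested.

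The untreated arrays differed between themselves in the family: untreated 1 was the higher in 36 of the 57 tested ABC probe sets (63.2%), beside 51.7% of all tested. The median gap was 0.21, and 6 gaps exceeded 0.5, 5 of them with untreated 1 the higher. Set against both untreated arrays, 19 of the 57 lay below and 23 above, beside 34.5% and 40.7% of all tested. Without untreated 2 these became 30 below and 27 above, and without untreated 1 they became 23 and 34. With 1 untreated array no value can lie between, so these counts cannot fall and are not comparable with the shares above. No share over all tested is given for them.

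**Figure D1:**
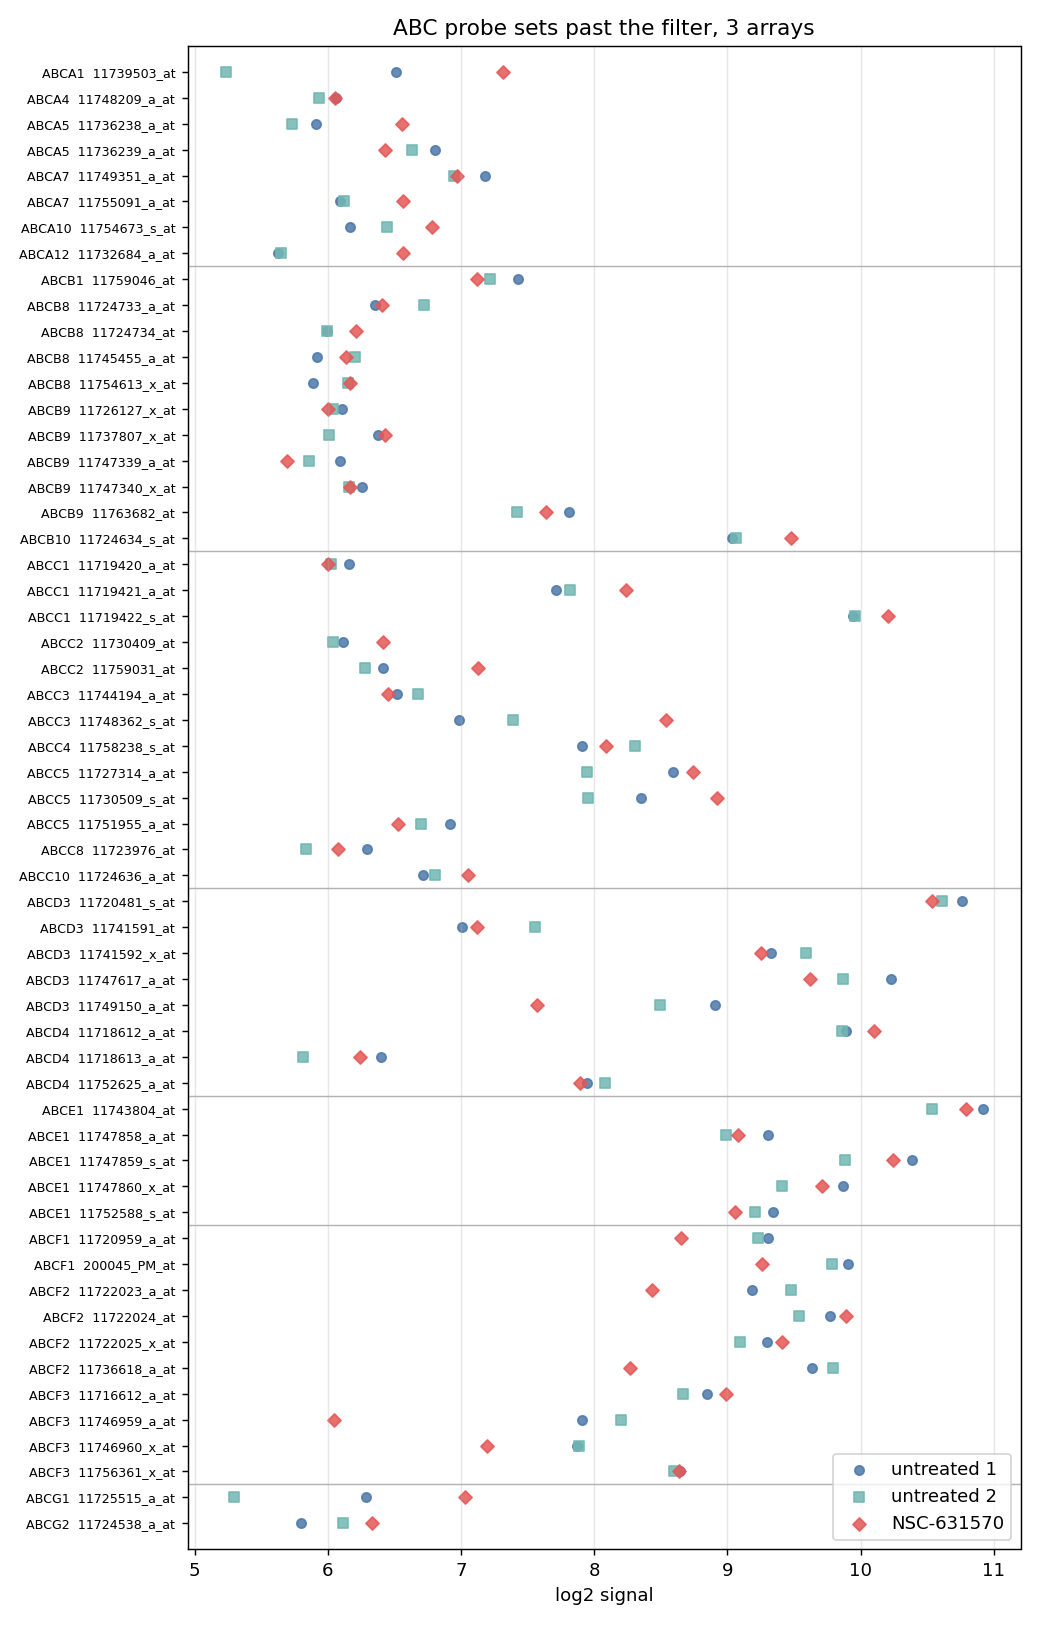
Log2 signal (x axis) of the 57 ABC probe sets past the filter in untreated 1, untreated 2 and the NSC-631570 array, 1 row per probe set, with lines between subfamilies. The treated value lies farthest to the left of its untreated pair in ABCF3 11746959_a_at (6.05 against 7.91 and 8.20).

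**Figure D2:**
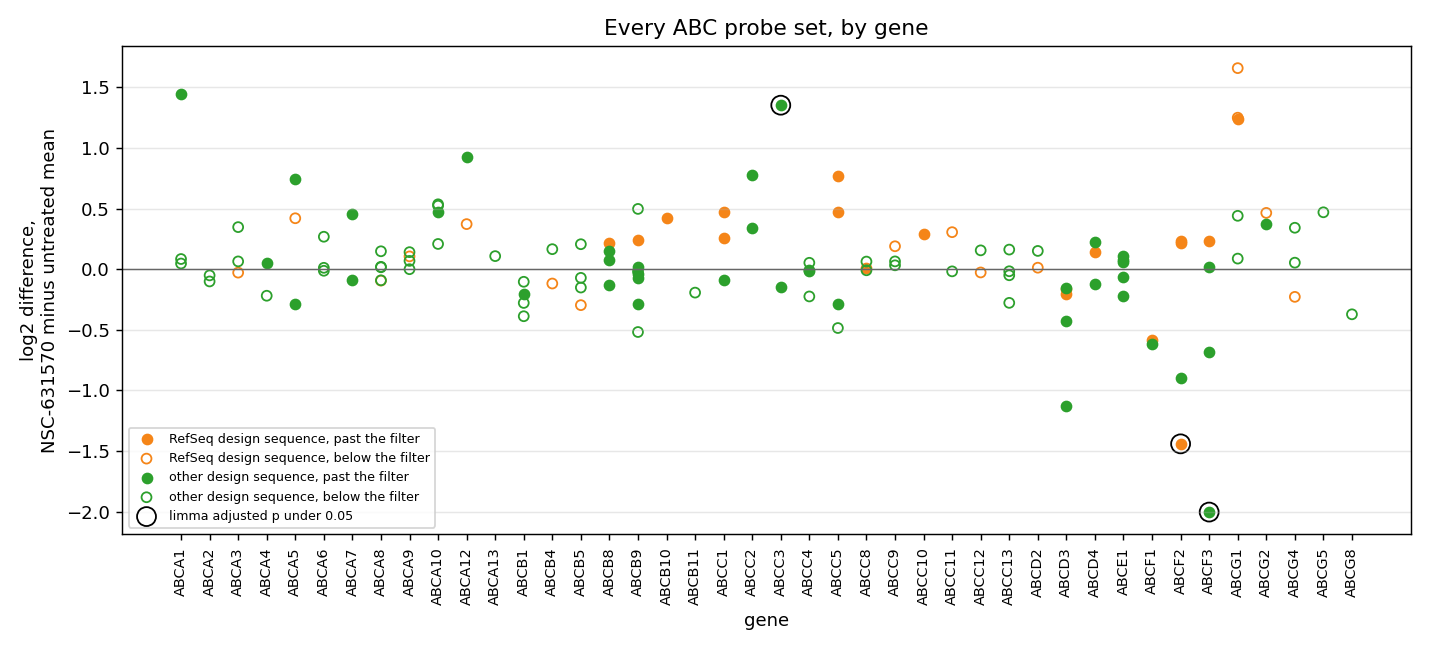
Log2 difference of the treated array from the untreated mean (y axis) for all 125 ABC probe sets, by gene; filled points passed the filter, colour gives the kind of design sequence, and rings mark limma adjusted p under 0.05. The 3 ringed points belong to ABCC3, ABCF2 and ABCF3, and each of these genes also has a probe set on the other side of 0.

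Subfamily C held the call in the higher direction. ABCC3 encodes multidrug resistance protein 3, an exporter of glucuronide and bile salt conjugates. Its probe set 11748362_s_at read 6.99 in untreated 1, 7.39 in untreated 2 and 8.54 after the extract. That last value lay clearly above both, a difference of 1.35 ± 0.25 (SE from limma, 2 untreated arrays against 1 treated), or 2.55-fold, with a limma adjusted p of 0.0375. This probe set was designed on a sequence other than RefSeq, and its suffix marks probes shared between transcripts. The other ABCC3 probe set, 11744194_a_at, read 6.52, 6.68 and 6.45, with the treated value just below both (−0.15 ± 0.22, adjusted p = 0.814). The call on ABCC3 was lost after quantile normalization (adjusted p = 0.0634), with no filter (0.0607) and with the brightest probe set of each gene (0.0952). With the mean of its probe sets ABCC3 differed by 0.60 (adjusted p = 0.257). Where probe sets of the _s_at and _x_at kinds were left out, the called one was not tested.

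ABCC2, the exporter of conjugates at the apical membrane, lay above both untreated arrays on both of its probe sets without a call. On 11759031_at it read 6.42, 6.28 and 7.13 (0.78 ± 0.22, adjusted p = 0.118). On 11730409_at it read 6.12, 6.04 and 6.42 (0.34, adjusted p = 0.492). ABCC5, an exporter of cyclic nucleotides, went 2 ways. Its probe set 11730509_s_at read 8.35, 7.95 and 8.92 (0.77 ± 0.25, adjusted p = 0.16), and 11727314_a_at read 8.59, 7.94 and 8.74 (0.47, adjusted p = 0.475). The first lies clear of the untreated pair, while the second exceeds untreated 1 by less than the untreated pair differ. On 11751955_a_at ABCC5 read 6.92, 6.70 and 6.52, below both (−0.28), and its probe set below the filter differed by −0.49.

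ABCC1, multidrug resistance protein 1, lay above both untreated arrays on its RefSeq-designed probe sets and slightly below both on the remaining one. The bright 11719422_s_at read 9.94, 9.95 and 10.21 (0.26, adjusted p = 0.619), and 11719421_a_at read 7.71, 7.82 and 8.24 (0.47, adjusted p = 0.318). The remaining one, 11719420_a_at, read 6.16, 6.03 and 5.998 (−0.09). ABCC4, an exporter of cyclic nucleotides and prostaglandins, read 7.91, 8.31 and 8.09 on its only tested probe set. The treated array lay between the untreated ones, and the difference of −0.02 had a 95% interval from −0.60 to 0.57. ABCC10 and ABCC8, the sulphonylurea receptor of potassium channels, had differences of 0.29 and 0.01. Over the 13 tested probe sets of subfamily C, 8 lay above both untreated arrays and 3 below, beside 40.7% and 34.5% of all tested. Their median was 0.29. Over all 30, 12 lay above and 6 below, beside 38.7% and 33.3% of all 44994 probe sets, and the median was 0.042.

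The sterol exporters of subfamilies A and G had the widest gaps between the untreated arrays. ABCA1 passes cholesterol and phospholipid to apolipoprotein A-I, and ABCG1 passes sterol on to formed lipoprotein particles. ABCA1 on 11739503_at read 6.51 in untreated 1, 5.23 in untreated 2 and 7.32 in the treated array. The treated value was the highest, but the untreated pair differed by 1.28 and the difference of 1.44 ± 0.46 (95% interval 0.38 to 2.50) was not called (adjusted p = 0.149). It was 0.81 against untreated 1 alone and 2.08 against untreated 2 alone. The other ABCA1 probe sets lay below the filter, with differences of 0.08 and 0.05.

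ABCG1 had the same order of arrays. Its tested probe set 11725515_a_at read 6.29, 5.29 and 7.03 (1.24 ± 0.38, 95% interval 0.35 to 2.12, adjusted p = 0.139) and passed the filter only through its treated value. Below the filter, 11725517_x_at read 5.84, 4.57 and 6.86 (1.66) and 11725516_s_at read 5.51, 4.81 and 6.41 (1.25). These 3 probe sets, all designed on RefSeq, rank the arrays alike, with the treated array at the top and untreated 2 at the bottom. The remaining ABCG1 probe sets differed less, with 5.85, 5.01 and 5.87 on 11750659_a_at (0.44) and 5.07, 4.73 and 4.99 on 11726492_a_at (0.09). Untreated 1 exceeded untreated 2 on all 5, by 0.34 to 1.27. The tested probe sets of the leukocyte markers CD68, CD14 and CD3E were also highest in the treated array. Those of PTPRC, below the filter, differed by −0.13 to 0.22. The part of leukocyte markers in these values was not tested.

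ABCG2, the breast cancer resistance protein, read 5.80, 6.12 and 6.33 on its tested probe set 11724538_a_at, near the filter. The treated array was the highest, and the difference of 0.38 (95% interval −0.18 to 0.93) was not called (adjusted p = 0.48). Its other probe set, below the filter, read 5.35, 5.13 and 5.71 (0.46). ABCG5 and ABCG8, which together export plant sterols, stayed below the filter with differences of 0.47 and −0.37. Of the 12 probe sets of subfamily G, 8 lay above both untreated arrays and 2 below. Over all 44994 probe sets the shares were 38.7% and 33.3%. Of the 8, 4 belong to ABCG1, and only 2 of the 12 were tested.

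**Figure D3:**
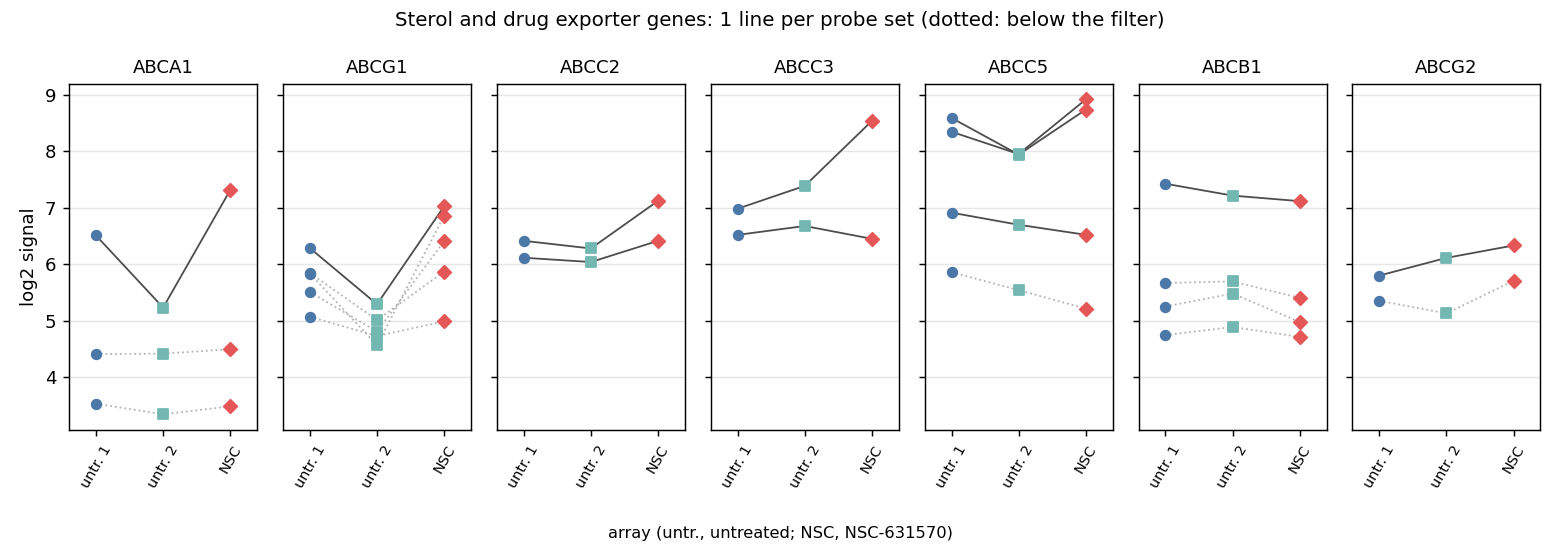
Log2 signal (y axis) of every probe set of ABCA1, ABCG1, ABCC2, ABCC3, ABCC5, ABCB1 and ABCG2 in the 3 arrays, 1 line per probe set, dotted where it lay below the filter. In all 5 lines of ABCG1 and in the tested line of ABCA1 (6.51, 5.23 and 7.32) untreated 2 is the lowest, and in ABCC3 1 line climbs to 8.54 while the other ends at 6.45.

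The rest of subfamily A is lipid transporters of the plasma membrane and of inner compartments. ABCA12, which loads the lipids of the skin barrier in keratinocytes, read 5.63, 5.65 and 6.57 on 11732684_a_at. The untreated values were nearly equal and the treated one stood above them (0.93 ± 0.22), but the call was missed (adjusted p = 0.0706) and the probe set passed the filter only through the treated array. The other ABCA12 probe set, below the filter, read 5.37, 4.57 and 5.34 (0.37), with the treated value between. ABCA5, a lysosomal lipid transporter, split: 11736238_a_at read 5.91, 5.73 and 6.56 (0.74, adjusted p = 0.136) and passed the filter only through its treated value. ABCA5 11736239_a_at read 6.80, 6.63 and 6.43 (−0.29, adjusted p = 0.586), below both. ABCA7, a phospholipid transporter, read 6.09, 6.12 and 6.56 on 11755091_a_at (0.46, adjusted p = 0.33), above both, and lay between them on its other probe set (−0.09). The 4 probe sets of ABCA10 differed by 0.21 to 0.54, all above both untreated arrays, and 1 of them was tested. The median of subfamily A was 0.47 over its 8 tested probe sets, 2 of which passed the filter only through the treated value, and 0.076 over all 34.

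Subfamily B, with P-glycoprotein, had small differences and no call. ABCB1, which encodes P-glycoprotein, read 7.43, 7.22 and 7.12 on 11759046_at. The treated value was the lowest by 0.10, and the difference of −0.20 ± 0.23 (95% interval −0.73 to 0.33) was not called (adjusted p = 0.73). The 3 ABCB1 probe sets below the filter were likewise lowest in the treated array, with differences of −0.39, −0.28 and −0.10. ABCB10, a transporter of the inner mitochondrial membrane, had 1 probe set, which read 9.04, 9.07 and 9.48. It lay above both without a call (0.42, adjusted p = 0.369). ABCB9, a lysosomal peptide transporter, had differences from −0.28 to 0.24 on 5 tested probe sets, 1 above both and 2 below both. ABCB8, also mitochondrial, had differences from −0.13 to 0.22 on 4. Of the 11 tested probe sets, 4 lay above both untreated arrays and 3 below, beside 40.7% and 34.5% of all tested. Their median was 0.02, with none at least 1.5-fold beyond both. Of all 24, 7 lay above and 11 below, beside 38.7% and 33.3% of all 44994 probe sets, with a median of −0.07. Outside the rule for named genes, and chosen after its values were seen, ABCB6 was covered by 5 probe sets that also name ATG9A. Of these, 4 lay above both untreated arrays (0.34 to 0.40) and 1 below both (−0.43).

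In subfamily D, ABCD3 encodes a protein of the peroxisomal membrane, an importer of fatty acids. Its probe set 11749150_a_at read 8.90, 8.49 and 7.57. It was lowest in the treated array, by more than the untreated pair differed, a difference of −1.13 ± 0.25, or 2.18-fold lower, which missed the threshold (adjusted p = 0.0621). It was called when the arrays were brought to a common median over the tested probe sets (limma adjusted p = 0.0431). It was also called without probe sets of the _s_at and _x_at kinds (0.0348), a setting chosen after seeing the data. It was not called after quantile normalization (0.0922) or with a common median over all probe sets (0.0653). The brightest ABCD3 probe set, 11720481_s_at, read 10.76, 10.61 and 10.53 (−0.15). The other ABCD3 probe sets differed by −0.16, −0.20 and −0.43, so that 4 of 5 lay below both untreated arrays. ABCD4, which exports vitamin B12 from lysosomes, had differences of 0.23, 0.14 and −0.12. ABCD2 lay below the filter.

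ABCE1, which splits ribosomes after termination, differed little on all 5 of its probe sets. Their signals ran from 8.99 to 10.92, and the differences were 0.06, −0.07, 0.11, 0.07 and −0.22. The treated value lay between the untreated ones on 4, and the fifth, 11752588_s_at, read 9.34, 9.21 and 9.05. Untreated 1 was the higher on all 5.

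Subfamily F, the ribosome-binding proteins ABCF1 to ABCF3, held both calls in the lower direction, and all 10 of its probe sets were tested. ABCF3, the relative of the yeast protein that activates the amino-acid sensing kinase, read 7.91, 8.20 and 6.05 on 11746959_a_at. The last of these lay far below both, a difference of −2.00 ± 0.24, or 4.01-fold lower (adjusted p = 0.0109). ABCF3 11746960_x_at read 7.87, 7.89 and 7.19, also below both (−0.68 ± 0.22, adjusted p = 0.153). The remaining ABCF3 probe sets did not share that direction: 11716612_a_at, on RefSeq, read 8.85, 8.67 and 8.99 (0.24, adjusted p = 0.672). On 11756361_x_at ABCF3 read 8.64, 8.60 and 8.64 (0.02), between the untreated values.

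ABCF2, a soluble ABC protein related to ABCF3, split in the same manner. On 11736618_a_at, designed on RefSeq, it read 9.63, 9.79 and 8.27. The treated value lay below both, a difference of −1.44 ± 0.22, or 2.72-fold lower (adjusted p = 0.0211). ABCF2 11722023_a_at read 9.18, 9.47 and 8.43, also below both (−0.90 ± 0.24, adjusted p = 0.095). ABCF2 11722024_at read 9.77, 9.54 and 9.89 (0.24, adjusted p = 0.679), and 11722025_x_at read 9.30, 9.09 and 9.41 (0.21, adjusted p = 0.714). On these the treated array was the highest of the 3. ABCF1, which binds the initiation factor eIF2 and promotes initiation, was below both on both of its probe sets. They read 9.30, 9.23 and 8.65 on 11720959_a_at (−0.62 ± 0.22, adjusted p = 0.195) and 9.90, 9.78 and 9.26 on 200045_PM_at (−0.58 ± 0.22, adjusted p = 0.218). Here the probe sets gave nearly the same difference, and neither was called.

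Over subfamily F, 6 of 10 probe sets lay below both untreated arrays and 3 above, beside 34.5% and 40.7% of all tested. Their median was −0.60. At least 1.5-fold below both were 4, beside 6.77% of all tested. The calls on ABCF2 and ABCF3 held in every fit of single probe sets, with adjusted p from 0.00848 to 0.0352 for ABCF2 11736618_a_at and from 0.00263 to 0.0243 for ABCF3 11746959_a_at. With 1 value per gene both were lost: the brightest probe sets gave differences of 0.24 for both genes, and the means of their probe sets gave −0.47 for ABCF2 (adjusted p = 0.303) and −0.61 for ABCF3 (adjusted p = 0.217). The 5′ control probe sets of ACTB and GAPDH differed by −1.37 and −0.48, as given above, and where the ABC probe sets lie on their transcripts was not tested.

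**Figure D4:**
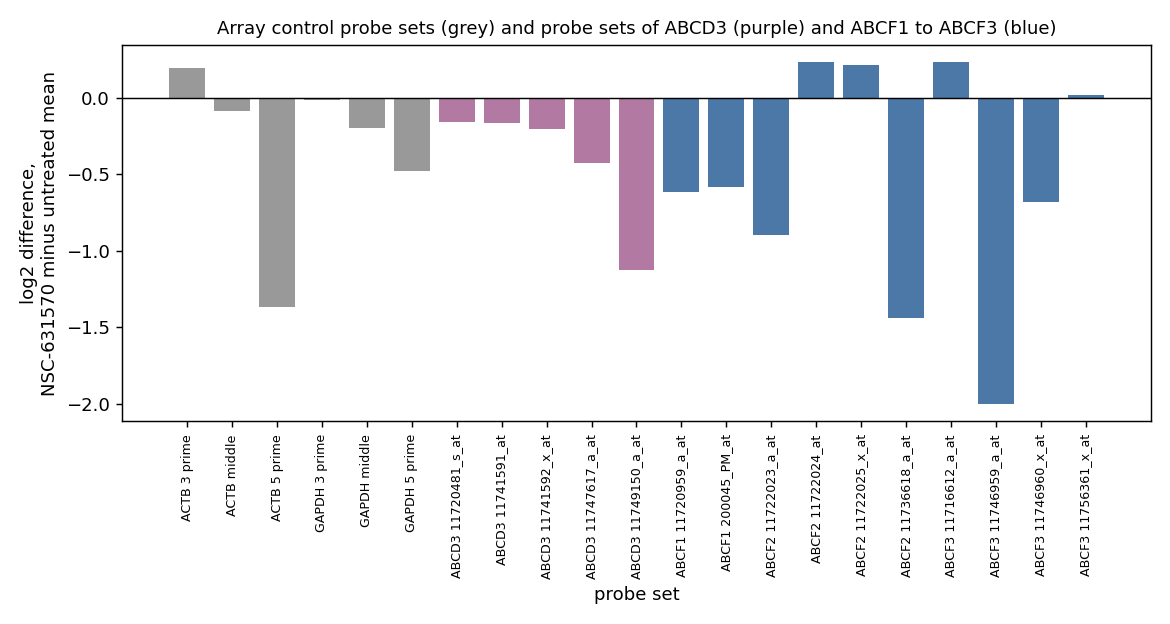
Log2 difference of the treated array from the untreated mean (y axis) for the array control probe sets of ACTB and GAPDH (grey), ABCD3 (purple) and ABCF1 to ABCF3 (blue), 1 bar per probe set. The 5′ bar of ACTB reaches −1.37 while its 3′ bar is at 0.20, and within ABCF2 and ABCF3 bars point both ways.

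Probe sets of 1 gene often lay on opposite sides. Of the 14 ABC genes with at least 2 tested probe sets, 8 (57.1%) had a probe set above both untreated arrays and another below both, beside 31.6% of all 7125 such genes, which were not matched for their number of probe sets. They were ABCA5, ABCB9, ABCC1, ABCC3, ABCC5, ABCD4, ABCF2 and ABCF3. The differences spread over 1 log2 unit or more in 5 genes (35.7%, beside 14.9%), with 2.24 in ABCF3, 1.68 in ABCF2, 1.502 in ABCC3, 1.06 in ABCC5 and 1.03 in ABCA5. At the other end ABCF1 spread over 0.03. The median spread was 0.56 for ABC genes and 0.41 for all. Of the 18 tested ABC probe sets designed on RefSeq, 12 lay above both untreated arrays and 3 below, with a median of 0.24. Over all tested probe sets designed on RefSeq the shares were 54.0% and 20.1%. Of the 39 others, 11 lay above and 16 below, beside 34.7% and 41.0%, with a median of −0.04. The call on ABCF2 was the only one among the 18, where 1.01% of all such probe sets were called higher and 0.331% lower. Those on ABCC3 and ABCF3 were among the 39, where 0.346% were called higher and 3.28% lower.

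The 68 ABC probe sets below the filter, and 17 genes with none past it, include tissue-restricted transporters such as ABCA3 of lung surfactant, ABCB11, the bile salt export pump, and ABCB4, which exports phosphatidylcholine into bile. Their differences ran from −0.52 to 1.66, and 63 of 68 lay within 0.5 of the untreated mean. The treated array was above both untreated ones in 26, below both in 15 and between in 27. Over all 44994 probe sets, tested or not, 38.7% lay above both and 33.3% below. Detection was not called, so a low signal does not show that a gene is silent. At the edge of the filter, the means were 5.76 (ABCG1 11725517_x_at), 5.69 (ABCC11) and 5.68 (ABCA2) just outside, and 5.88 (ABCB9 11747339_a_at), 5.95 (ABCA12) and 6.02 (ABCA4) just inside.

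ABC proteins that carry other symbols gave no call on 6 tested probe sets. TAP1, a subunit of the peptide transporter for antigen presentation, read 9.60, 9.72 and 10.57 on 11757351_a_at. It lay above both (0.91 ± 0.22, adjusted p = 0.0779), while its other probe set lay between (−0.09). Its partner TAP2 had differences of 0.50 and −0.64 on the probe sets that differed most, and CFTR, the chloride channel, lay below the filter. Proteins that work with ABC proteins gave 2 calls on 47 tested probe sets, both lower, beside 2.37% of all tested called lower. Of the 47, 11 lay above both untreated arrays and 22 below, beside 40.7% and 34.5% of all tested. EIF2S3, a subunit of the factor eIF2 that ABCF1 binds, read 11.79, 11.78 and 9.93 on 11719067_s_at, far below both (−1.86 ± 0.22, adjusted p = 0.0107). The other EIF2S3 probe sets differed by −0.03, −0.13 and −0.12. CALR, a chaperone of the complex that loads TAP peptides, read 9.83, 10.08 and 8.67 on 11715374_a_at (−1.28 ± 0.23, adjusted p = 0.0339) and differed by −0.37 on its other probe set. TAPBP, which tethers TAP to that complex, differed by −1.002 on 1 probe set (adjusted p = 0.0599) and by −0.44 to 0.22 on the others.

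Receptors and factors that control ABC genes gave no call on 50 tested probe sets of 17 genes. Of the 50, 23 lay above both untreated arrays and 15 below, beside 40.7% and 34.5% of all tested. Their median was 0.08. At an unadjusted p under 0.05, limma counted 3 higher and 3 lower of the 50, beside 8.3% and 9.56% of all tested. AHR, the receptor for aryl hydrocarbons, read 6.54, 6.83 and 5.76 on 11739680_a_at (−0.93, adjusted p = 0.0872), below both. On its other tested probe sets the treated value lay between the untreated ones (−0.07 and −0.21). SREBF1, a regulator of lipid synthesis, differed by −0.85 on 11735120_a_at (adjusted p = 0.136) and by 0.55 on 11715959_a_at. ARNT, the partner of AHR, differed by −0.70 on 11742052_a_at (adjusted p = 0.147) and by −0.21 to 0.43 elsewhere. Chosen after its values were seen, NR1H3, an oxysterol receptor, read 6.10, 6.38 and 6.80, above both (0.55, adjusted p = 0.273). PPARG, a fatty acid receptor chosen in the same way, lay above both on its 2 tested probe sets (0.61 and 0.58, adjusted p = 0.233 and 0.356). Other receptors of the list went both ways. RXRA lay below both on its probe sets (−0.35 and −0.21), and RXRB gave 0.54, 0.35 and −0.66 where tested. The tested probe sets of RXRG and PPARD differed by −0.25 and 0.12, and those of PPARA by −0.11 to 0.65. Carriers of the solute carrier families that take up drugs, anions and cations had 33 tested probe sets. Of these, 14 lay above and 14 below both untreated arrays, beside 40.7% and 34.5% of all tested. The carriers gave 1 call, lower, beside 2.37% of all tested called lower. It was SLC19A1, the reduced folate carrier, which read 7.83, 7.85 and 6.51 on 11746270_a_at (−1.33 ± 0.22, adjusted p = 0.0254). The treated value lay far below both there, while the brightest SLC19A1 probe set differed by −0.02. The remaining SLC19A1 probe sets differed by −0.78, below both, and by 0.30, above both. SLCO1A2, an organic anion carrier, differed by 0.89 on 11741711_a_at (adjusted p = 0.0846) and by 0.64 on its other tested probe set.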

How the data were processed

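The authors deposited 1 log2 signal per probe set for each array, from Affymetrix Expression Console per the submitters' processing notes. Its version, algorithm and normalization: not given in the sources used here. From the values, the scale was read as log2. Per the labels, RNA was isolated with RNeasy and labelled with the IVT Express kit. The members and gene lists were chosen with earlier results of these data known. Probe sets were named through the platform annotation, and design sequences were split into RefSeq (accessions starting NM or NR) and others.

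All 27255 probe sets that name 1 gene and have a mean of at least 5.85 were fitted with limma 3.58.1 (R 4.3.3) and called at a Benjamini-Hochberg adjusted p under 0.05. Only the untreated pair gives a residual (1 degree of freedom), moderated by 6.62 prior degrees around an SD of 0.19. The lone treated array is taken to vary as that pair does. A second rule, with no test, counted treated values outside both untreated arrays. Named were the ABC probe sets called, the 10 genes farthest above and the 10 farthest below both untreated arrays, the main drug and sterol exporters, genes with split probe sets, and up to 3 members of each list by difference. The fit was tested on simulated arrays of 27255 probe sets, with variances drawn from the fitted prior. The simulated arrays follow the assumptions of the fit, without the differences along transcripts and by design sequence. Their counts therefore give no error rate for the calls reported above. Of 27055 unchanged probe sets 22 were called. Of 50 changed by 1 log2 unit 13 were called in the right direction, and of 50 changed by 2 units 49. All 50 changed by 3 units and all 50 changed by 4 were called. Alternatives were other scalings, filters, variance priors, values per gene, a 2-fold rule and leaving out each untreated array. The number of arrays limits the precision, and no detection calls were used. Items withheld from this text are not reported here.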

Additional observations from a re-analysis of the deposited data

How the results depend on the processing

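Among results other than single probe sets, 111 values kept their direction and stayed near the main value, 9 stayed near it with the other sign, and 33 moved away; the cause was not tested unless the setting itself tests fewer probe sets or arrays. The higher call was 0 after quantile normalization and with no filter, and both the higher and the lower calls were 0 with 1 value per gene, by brightest probe set or by mean. ABC probe sets above and below both untreated arrays were 49 and 34 with no filter, 10 and 12 with a filter at the 60th percentile, 14 and 4 with the brightest probe set of each gene, and 7 and 4 with the mean per gene. Above both were 15 without probe sets of the _s_at and _x_at kinds, a setting chosen after seeing the data. At least 1.5-fold above both were 1 at the 60th percentile, 0 with the mean per gene and 3 with a filter on the untreated arrays alone, also chosen after seeing the data. At least 1.5-fold below both were 0 with the brightest probe set and 1 with the mean per gene. A 2-fold rule gave 1 above and 2 below. With 1 untreated array at a time, 23 to 30 ABC probe sets lay below it, and 5 to 8 at least 1.5-fold below. The higher counts came without untreated 2. No value can then lie between untreated arrays, so these counts cannot fall under the main ones. These settings allow no test. The family median was 0.24 with the brightest probe set. The median of subfamily A was 0.076 with no filter, 0.26 with the brightest probe set, 0.18 with the mean per gene and 0.25 with the filter on the untreated arrays. That of subfamily B was 0.22 and that of C 0.47 at the 60th percentile, and that of C was 0.042 with no filter. That of subfamily F, −0.60 as reported, was 0.24 with the brightest probe set. Medians near 0 changed sign: that of B was −0.07 with no filter, −0.0038 with a common median over the tested probe sets, and −0.05 with the brightest probe set and without the _s_at and _x_at kinds. That of D was 0.04 with the brightest probe set. That of E was −0.009 with the mean per gene, −0.0025 without the _s_at and _x_at kinds and −0.16 without untreated 2, and the family median was −0.01 without untreated 2. No paired analysis was possible, because the labels give no pairing of arrays and the treated array is alone.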
